A study of Mus musculus with 6 samples.

Results

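The miR-17-92 and miR-106b-25 polycistrons are a pair of related miRNA clusters, each cut from a shared primary transcript. Their 10 mature miRNAs were taken by name from the 1831 miRNAs of the deposited table, 7 from miR-17-92 (mmu-miR-17-5p, mmu-miR-17-3p, mmu-miR-18a-5p, mmu-miR-19a-3p, mmu-miR-20a-5p, mmu-miR-19b-3p, and mmu-miR-92a-3p) and 3 from miR-106b-25 (mmu-miR-106b-5p, mmu-miR-93-5p, and mmu-miR-25-3p). All 10 were found, and the species prefix mmu- is left out from here on. MYC and E2F factors drive miR-17-92 in dividing cells, and miR-106b-25 lies inside Mcm7, a gene of the replicative helicase. The miR-17 family restrains cell cycle inhibitors such as Cdkn1a. In the intestine, dividing cells sit in the crypts, so these miRNAs are commonly read as part of the proliferative programme of the mucosa.

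Small RNAs of the small intestinal mucosa were measured on 6 one-colour arrays, each carrying RNA of 1 sample, here called a mouse: 3 wild-type littermates and 3 Cdr1as-/- mice. The Cdr1as-/- strain lacks the locus of the circular RNA Cdr1as, which was removed with CRISPR/Cas9 on a pure C57BL/6J background. No other allele or agent is named for either group, and the ages of these mice are not given in the sources used here. An array of small RNA probes does not read Cdr1as, so the deletion itself could not be checked. The comparison asks which miRNAs differ in the mucosa when Cdr1as is lost, and here it is made for the 10 members.

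The mature sequences are shown because the members fall into families by their seed (bases 2 to 8, in capitals), the stretch that pairs with targets. Each matched its RefSeq entry by name and by sequence.

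mmu-miR-17-5p: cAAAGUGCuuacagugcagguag

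mmu-miR-20a-5p: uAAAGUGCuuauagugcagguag

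mmu-miR-93-5p: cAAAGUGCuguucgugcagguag

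mmu-miR-106b-5p: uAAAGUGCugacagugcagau

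mmu-miR-18a-5p: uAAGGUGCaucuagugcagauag

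mmu-miR-19a-3p: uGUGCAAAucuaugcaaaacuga

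mmu-miR-19b-3p: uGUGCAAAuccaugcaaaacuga

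mmu-miR-92a-3p: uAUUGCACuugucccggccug

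mmu-miR-25-3p: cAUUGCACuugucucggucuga

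mmu-miR-17-3p: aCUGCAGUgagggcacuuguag

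The miR-17 seed is carried by members of both polycistrons (miR-17-5p and miR-20a-5p, miR-106b-5p and miR-93-5p), as is the miR-92 seed (miR-92a-3p and miR-25-3p). The miR-19 seed is carried only by miR-19a-3p and miR-19b-3p among all miRNAs of the table. miR-17-5p and miR-20a-5p were identical at 21 of 23 bases, miR-19a-3p and miR-19b-3p at 22 of 23, and miR-92a-3p and miR-25-3p at 18 of the 21 compared from the first base. Whether the array probes separate such close relatives was not tested. In the RefSeq annotation of GRCm38.p6 the mature miR-17-92 members lie on the plus strand between chr14:115043684-115043706 (miR-17-5p) and chr14:115044476-115044496 (miR-92a-3p), a span of 813 bases. The miR-106b-25 members lie on the minus strand of chromosome 5 within 476 bases, from miR-106b-5p at chr5:138165787-138165807 through miR-93-5p at chr5:138165574-138165596 to miR-25-3p at chr5:138165332-138165353, all 3 inside Mcm7. miR-19b-3p and miR-92a-3p are also encoded in the paralogous miR-106a-363 cluster on chromosome X, at chrX:52741991-52742013 and chrX:52741854-52741874, so their values sum 2 loci.

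One array stood apart before any comparison. Its miRNA probes, in littermate 3, had a median processed signal of 236 intensity units, against 8.75 to 29.2 on the other 5 arrays, and the rank correlation of its normalized values with littermates 1 and 2 was 0.706 and 0.714, whereas those mice correlated with each other at 0.973. Its closest array was Cdr1as-/- mouse 1, the next brightest, at 0.914, and that mouse correlated with littermates 1 and 2 at 0.894 and 0.906. Group differences are therefore given with all 6 arrays and without littermate 3. Levels are normalized log2 values per miRNA as deposited, where a difference of 1 is a doubling, and they are listed in the order of mice 1 to 3. Of the 10 members, 9 were read by 5 probes and miR-92a-3p by 3, and every member had at least 1 probe well above background on every array. Cdr1as-/- mouse 2 had the fewest such probes for miR-92a-3p (1 of 3), the lowest-reading member.

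Among the miR-17 seed members, the level of miR-17-5p was 9.77, 10.01, and 9.09 for the littermates, while Cdr1as-/- mice read 8.97, 9.995, and 9.15. The level of miR-20a-5p was 11.09, 11.43, and 9.38 for the littermates, while Cdr1as-/- mice read 10.66, 11.37, and 10.61. In both, Cdr1as-/- mouse 2 read like littermates 1 and 2, while Cdr1as-/- mice 1 and 3 read lower. The level of miR-106b-5p, the first miRNA of its polycistron, was 10.17, 10.41, and 5.97 for the littermates, while Cdr1as-/- mice read 8.83, 10.22, and 9.59. For miR-93-5p, the next in the same transcript, these levels were 8.84, 8.98, and 8.74 for the littermates, while Cdr1as-/- mice read 8.08, 9.09, and 8.30. Both miRNAs showed the same order of the Cdr1as-/- mice, with mouse 2 highest, mouse 3 next, and mouse 1 lowest, but they parted in littermate 3, where miR-106b-5p read far below every other array and miR-93-5p did not.

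miR-18a-5p, which differs from the miR-17 seed by 1 base, had levels of 8.88, 9.21, and 6.69 for the littermates, while Cdr1as-/- mice read 7.50, 9.06, and 8.25. The miR-19 family is regarded as the main oncogenic component of miR-17-92. Its miR-19a-3p had levels of 10.36, 10.56, and 6.43 for the littermates, while Cdr1as-/- mice read 9.28, 10.50, and 9.88. Its miR-19b-3p had levels of 10.79, 10.89, and 6.88 for the littermates, while Cdr1as-/- mice read 9.83, 10.90, and 10.04. In all 3 of these miRNAs littermate 3 was the lowest of the 6 arrays, so the littermates spanned the range of the Cdr1as-/- mice but for miR-19b-3p in Cdr1as-/- mouse 2, which read 10.90 against 10.89 in littermate 2.

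The miR-92 family shares its seed with miR-32-5p, a miRNA encoded elsewhere. The level of miR-92a-3p was 5.20, 5.51, and 3.58 for the littermates, while Cdr1as-/- mice read 4.23, 5.10, and 4.81. The level of miR-25-3p was 9.15, 9.31, and 5.37 for the littermates, while Cdr1as-/- mice read 7.78, 9.28, and 8.65. Without littermate 3, miR-92a-3p was the only member for which every Cdr1as-/- mouse read below every littermate. miR-17-3p, the passenger strand of the miR-17 hairpin, had levels of 7.52, 7.71, and 7.77 for the littermates, while Cdr1as-/- mice read 6.77, 7.79, and 7.07, and it was the only member that read above littermates 1 and 2 in littermate 3.

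**Figure D1:**
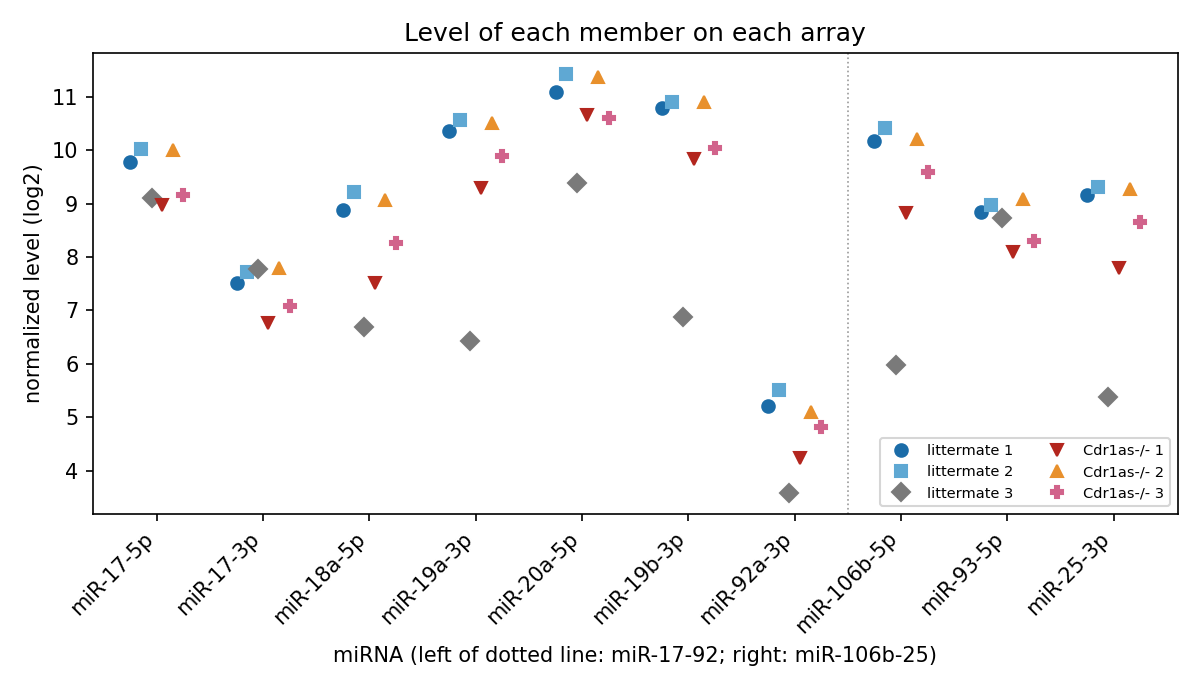
The normalized log2 level of each member (x axis, in genomic order within each polycistron) on each of the 6 arrays; each symbol is 1 mouse. Cdr1as-/- mouse 2 lies beside littermates 1 and 2 for the members, Cdr1as-/- mice 1 and 3 lie lower, and littermate 3 falls far below the others for miR-19a-3p, miR-19b-3p, miR-106b-5p, and miR-25-3p.

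With all 6 arrays, no member passed the test between the groups. Of the 10 members, 4 had a lower mean and 6 a higher mean in Cdr1as-/- mice, with log2 differences from -0.46 (miR-17-3p) to 0.77 (miR-19a-3p), while 60.9% of all miRNAs were lower. The median difference was 0.01 for miR-17-92 and 0.63 for miR-106b-25, against -0.07 over all miRNAs. The smallest unadjusted limma p among the members was 0.203 (miR-17-3p), and none of their adjusted p-values was below 0.05, a threshold that 0 of 1831 miRNAs passed (0% of those tested). With an unadjusted limma p below 0.05, 4 miRNAs of the table were lower in Cdr1as-/- mice (0.218%) and 2 were higher (0.109%), none of them members. No member had groups that did not overlap, against 2.73% of all miRNAs lower and 0.437% higher without overlap. The littermates themselves were far apart for some members: their SD (n = 3) was 2.497 for miR-106b-5p, 2.33 for miR-19a-3p, and 2.29 for miR-19b-3p, but 0.12 for miR-93-5p and 0.13 for miR-17-3p.

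Without littermate 3, all 10 members had a lower mean in Cdr1as-/- mice, whereas 42.9% of all miRNAs did. Among the cell type lists given below, 6 of 6 immune and 8 of 9 epithelial miRNAs were also lower. So were 2 of 5 smooth muscle and mesenchyme miRNAs and 2 of 3 erythroid ones. The medians of these lists were -0.32, -0.16, 0.23, and -0.81, so a lower mean was not particular to the members. The differences ran from -0.38 ± 0.30 (limma log2 estimate ± SE) for miR-20a-5p, which is 1.30-fold lower, to -0.77 ± 0.41 for miR-18a-5p, which is 1.71-fold lower. In miR-17-92 the other differences were -0.52 ± 0.33 for miR-17-5p, -0.40 ± 0.32 for miR-17-3p, -0.57 ± 0.35 for miR-19a-3p, -0.58 ± 0.33 for miR-19b-3p, and -0.64 ± 0.30 for miR-92a-3p. In miR-106b-25 they were -0.74 ± 0.38 for miR-106b-5p, -0.42 ± 0.32 for miR-93-5p, and -0.66 ± 0.39 for miR-25-3p. The medians were -0.57 for miR-17-92 and -0.66 for miR-106b-25, while the median of all miRNAs was 0.09. None of these differences passed the test. Unadjusted limma p-values of the members ran from 0.062 (miR-92a-3p) to 0.240 (miR-17-3p) and adjusted ones from 0.388 to 0.482, whereas 10.5% of the whole table were lower with an unadjusted p below 0.05, 2.73% were higher, and 0 passed after adjustment. The exact permutation test over these 5 mice, two-sided on the difference of means, gave p = 0.2 for miR-92a-3p and 0.3 or 0.4 for the other members, where the smallest it can give is 0.1. The 1 member of 10 without overlap between the groups, miR-92a-3p, is to be read against 19.9% of all miRNAs that were lower without overlap and 20.3% that were higher. Without Cdr1as-/- mouse 1 as well, all 10 members had a lower mean, where 45.2% of all miRNAs did, by -0.40 to -0.18. In that comparison the littermates lay on slide 1 and the Cdr1as-/- mice on slide 2, so genotype and slide cannot be told apart. The differences are of the size of the spread among the Cdr1as-/- mice, whose SD ran from 0.43 (miR-20a-5p) to 0.78 (miR-18a-5p).

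**Figure D2:**
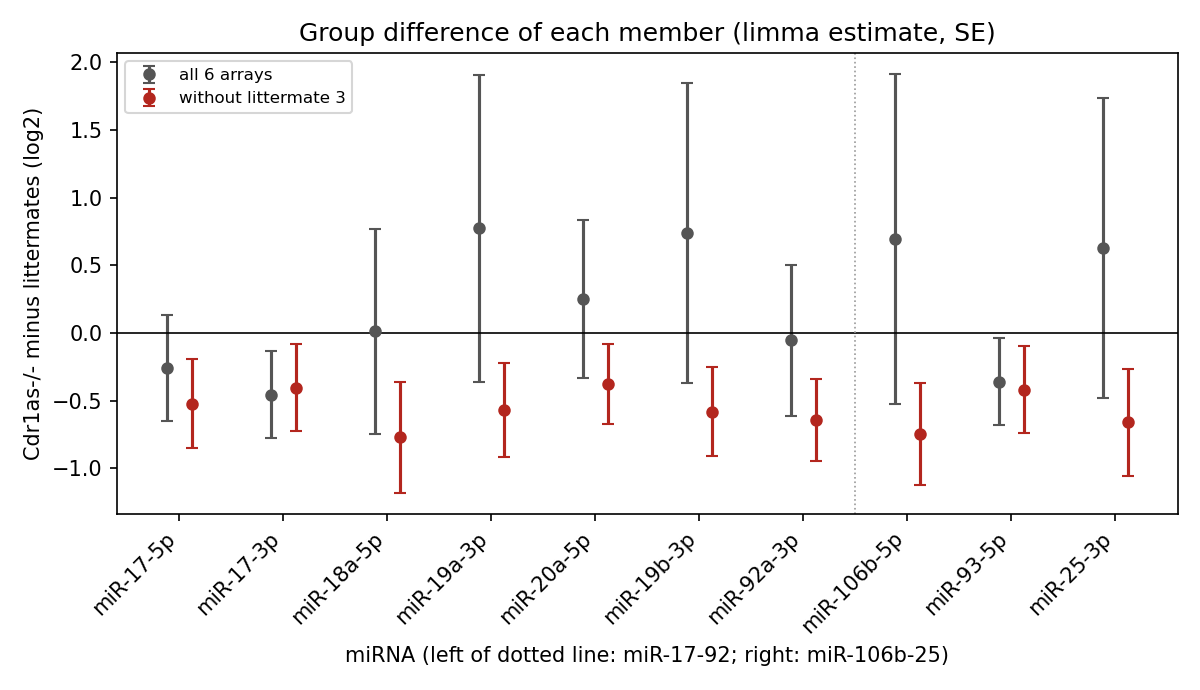
The limma estimate of Cdr1as-/- minus littermates (log2, y axis) with its SE for each member, with all 6 arrays (grey) and without littermate 3 (red). All 10 estimates lie below 0 without littermate 3, whereas 6 of 10 lie above 0 with all 6 arrays.

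The members moved together from mouse to mouse. Relative to the mean of littermates 1 and 2, the 10 members lay between -0.26 and 0.18 in Cdr1as-/- mouse 2, with a median of 0.05. They lay between -0.80 and -0.54 in Cdr1as-/- mouse 3, with a median of -0.63 and an SD over members of 0.10, and between -1.54 and -0.60 in Cdr1as-/- mouse 1, with a median of -1.07 and an SD of 0.31. Over all 1831 miRNAs the corresponding medians were 0.02, 0.01, and 0.15, and the SDs were 0.46, 0.53, and 0.79. All 10 members were thus below that mean in mice 1 and 3, where 40.9% and 49.2% of all miRNAs were, and 2 of 10 were below it in mouse 2, where 47.6% of all miRNAs were. The order littermates 1 and 2 above mouse 3 above mouse 1 held for 9 of 10 members and for 21.0% of all miRNAs, and miR-20a-5p was the exception, at -0.60 in mouse 1 and -0.65 in mouse 3. It was not particular to the members. miR-32-5p, the immune miR-146a-5p (-1.49 in mouse 1 and -0.94 in mouse 3), and the epithelial miR-375-3p (-1.505 and -0.49) had it too. Others of those lists, such as miR-142a-3p and miR-194-5p, did not. This order was noticed after the values were seen, and it describes these mice. In mouse 1 the lowest members were miR-18a-5p (-1.54), miR-106b-5p (-1.46), and miR-25-3p (-1.45). In bulk mucosa, fewer cells that hold a miRNA and less of it per cell cannot be told apart.

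**Figure D3:**
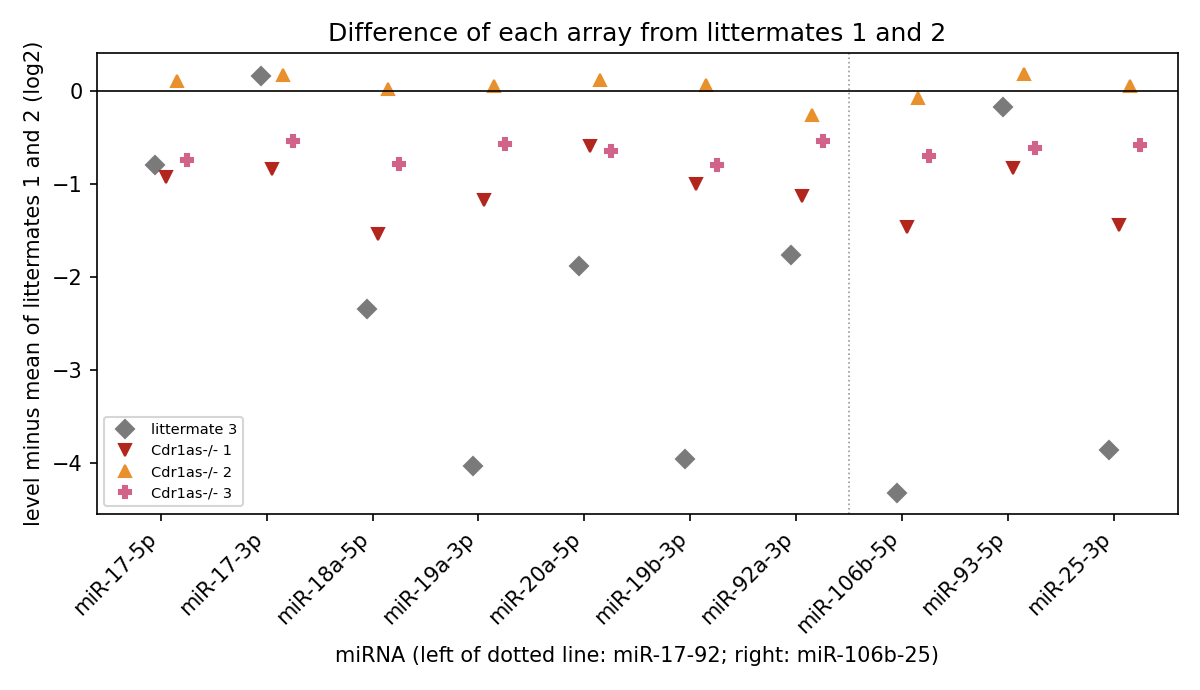
The level of each member minus the mean of littermates 1 and 2 (log2, y axis) in littermate 3 and in each Cdr1as-/- mouse. Cdr1as-/- mouse 2 scatters around 0, mouse 3 forms a narrow band from -0.80 to -0.54, mouse 1 runs from -1.54 to -0.60, and littermate 3 splits the members from 0.16 to -4.32.

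Signals before scaling between arrays did not show the same order. The mean processed signal of the miR-17-5p probes was 419, 590, and 4712 intensity units in littermates 1 to 3 and 901, 627, and 350 in Cdr1as-/- mice 1 to 3. In Cdr1as-/- mouse 1 the unscaled signal was above both littermates 1 and 2 for 8 of 10 members, by a median ratio to their mean of 1.43, while the median miRNA probe of that array was 3.06 times theirs. In Cdr1as-/- mouse 3 the unscaled signal was below both for 8 of 10 members, with a median ratio of 0.730, while its median miRNA probe was at 1.15 times theirs. The lower normalized level in mouse 3 was thus also present before scaling for those 8, whereas that in mouse 1 was a smaller gain than that of the typical probe. The brightness of the array moved with the result in mouse 1, and its part in it was not tested.

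**Figure D4:**
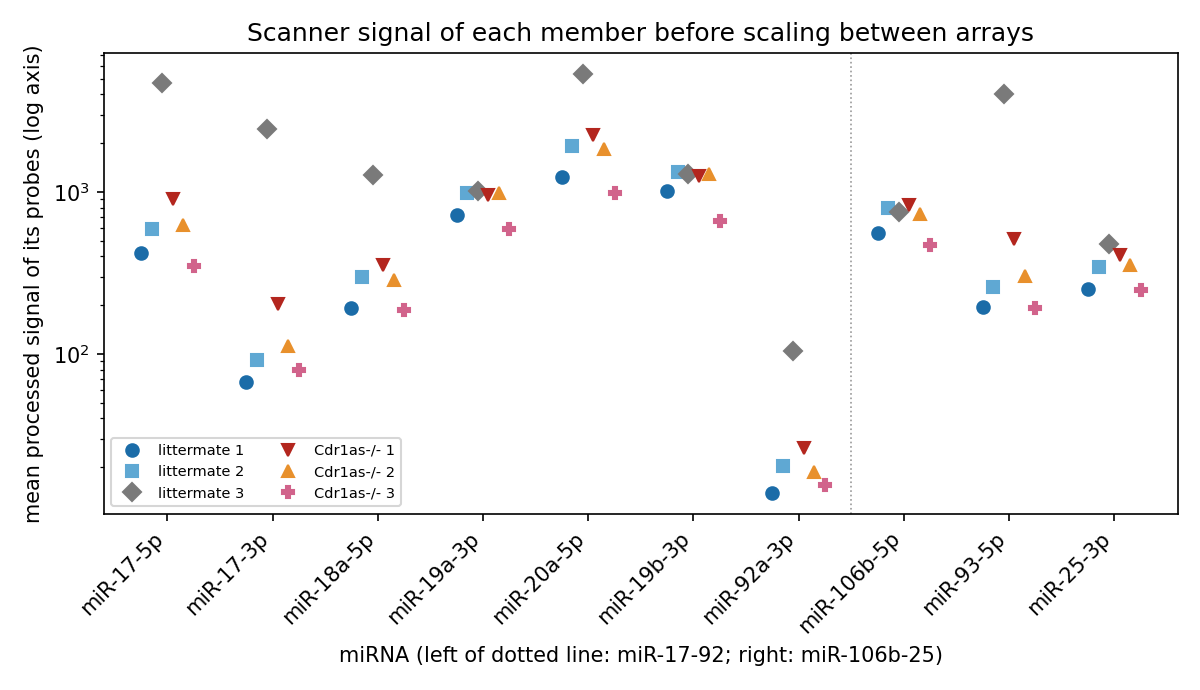
The mean background-subtracted scanner signal of each member's probes (log axis) on each array before scaling between arrays. Littermate 3 is 4712 for miR-17-5p and 3996 for miR-93-5p, far above the other arrays, but 747 for miR-106b-5p and 1298 for miR-19b-3p, within their range.

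Littermate 3 divided both transcripts. Compared with the mean of littermates 1 and 2, 9 of 10 members were lower there, where 34.3% of all miRNAs were. The drop was not particular to the members. Of the cell type lists given below, 9 of 9 epithelial, 5 of 6 immune, 5 of 5 smooth muscle and mesenchyme, and 2 of 3 erythroid miRNAs were lower there. Their median differences were -3.08, -3.54, -3.29, and -1.96. The log2 difference was -4.03 for miR-19a-3p, -3.96 for miR-19b-3p, -4.32 for miR-106b-5p, and -3.86 for miR-25-3p. It was -2.35 for miR-18a-5p, -1.88 for miR-20a-5p, and -1.77 for miR-92a-3p, but -0.80 for miR-17-5p, -0.17 for miR-93-5p, and 0.16 for miR-17-3p. miR-106b-5p and miR-93-5p, cut from a shared transcript, were thus far apart on this array. Before scaling, its signal for miR-19a-3p, miR-19b-3p, miR-106b-5p, and miR-25-3p was 1.104 to 1.60 times the mean of littermates 1 and 2, but 9.34 times for miR-17-5p, 17.6 times for miR-93-5p, and 30.8 times for miR-17-3p. Probes for the same miRNA did not always agree there: those of miR-93-5p differed from littermates 1 and 2 by -0.91 to 2.03, those of miR-25-3p by -4.09 to -0.74, and those of miR-106b-5p by -4.43 to -4.26. Among the members, the last 10 bases gugcagguag are shared by miR-17-5p, miR-20a-5p, and miR-93-5p, and in the whole table by 5 miRNAs, the others being miR-106a-5p and miR-20b-5p of the paralogous cluster. In littermate 3 the median of the 3 members with the ending was -0.80, and that of the 7 members that lack it was -3.86. Over all miRNAs of the table, few of which carry it, the median was 0.39. The median of the 5 carriers was -0.17, with miR-106a-5p at 0.07 and miR-20b-5p at 1.06. The ending did not sort all members: miR-20a-5p carries it and was at -1.88, below miR-92a-3p (-1.77) and miR-17-3p (0.16), which lack it. This grouping was noticed after the values were seen and has no test.

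Members of a polycistron were also compared within each array, where a constant scaling of the array drops out. The scanner signals were read at the highest probe of each miRNA, whereas a deposited value is a mean over its probes. For miR-106b-5p minus miR-93-5p, Cdr1as-/- mice minus littermates over all 6 arrays was 1.06 in the deposited values. It was 0.90 at their highest probe and 0.70 in scanner signals scaled to the 75th percentile. For miR-106b-5p minus miR-25-3p these values were 0.07, -0.07, and -0.08. The parts of probe choice and scaling in these shifts were not tested. Over the 5 arrays without littermate 3, the difference of a pair varied by 0.15 to 0.95 on the log2 scale, with a median of 0.51 over the 24 pairs, against a median of 1.15 over all 1675365 pairs of miRNAs in the table. For the 2 strands of the miR-17 hairpin, miR-17-5p minus miR-17-3p was 2.26 and 2.30 (littermates 1 and 2) against 2.20, 2.21, and 2.08 (Cdr1as-/- mice). For miR-19a-3p minus miR-19b-3p it was -0.43 and -0.33 (littermates 1 and 2) against -0.55, -0.40, and -0.16 (Cdr1as-/- mice). For miR-106b-5p minus miR-25-3p, the first and last members of their cluster, it was 1.02 and 1.104 (littermates 1 and 2) against 1.05, 0.94, and 0.94 (Cdr1as-/- mice). Littermate 3 read 1.32, -0.45, and 0.60 for these pairs, below the other 5 arrays for the first and the last and within their range for miR-19a-3p minus miR-19b-3p. For miR-106b-5p minus miR-93-5p, littermate 3 read -2.77, compared with 1.33 and 1.43 (littermates 1 and 2) and 0.75, 1.13, and 1.29 (Cdr1as-/- mice). In littermate 3, 12 of the 24 pairs lay more than 2 away from the mean of littermates 1 and 2.

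With all 6 arrays no pair separated the groups: 0 of 24 pairs were without overlap, where 3.67% of all pairs of miRNAs were, and the smallest exact permutation p, two-sided, was 0.2, which was 1 after Benjamini-Hochberg adjustment over the pairs. Without littermate 3, 7 of 24 pairs did not overlap, where 39.4% of all pairs of miRNAs did not, or 38.7% of the pairs among the 622 miRNAs with every probe well above background, so the members' share was below that background. miR-17-3p was in 4 of these 7 pairs. The smallest exact permutation p was 0.1, the smallest possible, and 0.686 after adjustment, and the changes between groups were at most 0.39 (miR-18a-5p minus miR-20a-5p).

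**Figure D5:**
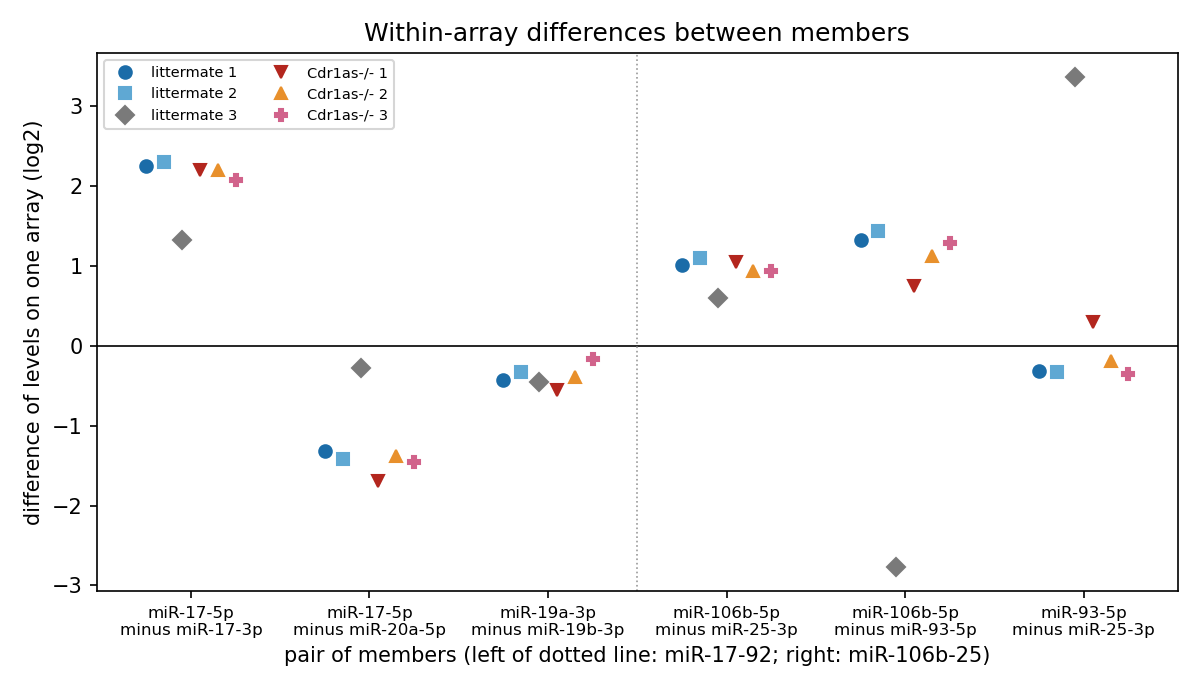
Differences between the log2 levels of 2 members on the same array, 3 pairs from miR-17-92 and 3 from miR-106b-25; each symbol is 1 mouse. Littermate 3 lies apart for miR-106b-5p minus miR-93-5p (-2.77) and miR-93-5p minus miR-25-3p (3.36), and miR-19a-3p minus miR-19b-3p stays between -0.55 and -0.16 on all arrays.

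Members that share a seed across the polycistrons were also set side by side. miR-17-5p minus miR-93-5p was 0.94 and 1.03 (littermates 1 and 2) against 0.89, 0.91, and 0.85 (Cdr1as-/- mice), a span of 0.18 over these 5 arrays, and 0.36 in littermate 3. miR-92a-3p minus miR-25-3p spanned 0.63 over the same arrays, and miR-20a-5p minus miR-106b-5p spanned 0.91. Littermate 3 lay outside both spans, at -1.79 for the former and 3.41 for the latter.

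Of 8 other strands of the same hairpins, 5 were lower and 3 higher in Cdr1as-/- mice without littermate 3, with a median of -0.20, and with all 6 arrays 6 were lower and 2 higher. Among them miR-19a-5p had levels of 4.82 and 4.88 (littermates 1 and 2) against 3.91, 4.25, and 4.12 (Cdr1as-/- mice), with 3.32 in littermate 3, whereas miR-18a-3p had 3.58 and 3.56 (littermates 1 and 2) against 4.13, 4.35, and 3.87 (Cdr1as-/- mice), with 4.58 in littermate 3. None of the probes for either strand was well above background in Cdr1as-/- mouse 2. Of 9 miRNAs of the miR-106a-363 cluster, 7 were lower without littermate 3 and 8 with all 6 arrays. Its miR-106a-5p and miR-20b-5p, which carry the miR-17 seed, had Cdr1as-/- mouse 2 above mice 1 and 3, and littermates 1 and 2 above those as well, with levels of 8.81 and 9.06 (littermates 1 and 2) against 8.14, 9.10, and 8.29 (Cdr1as-/- mice) for miR-106a-5p and 9.28, 9.54, 8.88, 9.55, and 8.76 on the same arrays for miR-20b-5p, in which mouse 1 lay above mouse 3. Littermate 3 read 9.002 for miR-106a-5p and 10.47 for miR-20b-5p, and their differences were -0.45 and -0.704 with all 6 arrays and -0.42 and -0.35 without littermate 3. Its miR-363-3p was 5.12 and 5.14 (littermates 1 and 2) against 4.38, 4.17, and 4.33 (Cdr1as-/- mice), with 4.35 in littermate 3 and no probe well above background in mouse 2, a difference of -0.58 with all 6 arrays and -0.84 without littermate 3. miR-32-5p, with the miR-92 seed, had 8.12 and 8.59 in littermates 1 and 2, 6.53, 8.31, and 7.50 in the Cdr1as-/- mice, and 4.33 in littermate 3. None of these related miRNAs passed the adjusted limma test with or without littermate 3.

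By the root mean square difference of levels centred over the 6 arrays, the other miRNAs with profiles most like the mean of miR-17-92 were miR-30a-3p (0.110), miR-350-3p (0.114), and miR-24-2-5p (0.125), where the median over other miRNAs was 0.928. For miR-106b-25 they were miR-3535 (0.0908), miR-3962 (0.109), and miR-3084-3p (0.121), against a median of 1.16. The level of miR-3535 was 9.18, 9.36, and 6.28 for the littermates, while Cdr1as-/- mice read 7.89, 9.14, and 8.44. These miRNAs were picked for this likeness, and the order of their arrays was not always that of the members: miR-3535 read lower in Cdr1as-/- mouse 2 than in littermate 1, while the 3 miR-106b-25 members read higher.

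The labelled tissue was checked against 9 epithelial miRNAs, of which miR-194-5p had levels of 15.18 to 15.86 over the 6 arrays and miR-192-5p 13.86 to 14.08 on the 5 arrays other than littermate 3. In littermate 3, miR-192-5p was 11.64. All 9 read below the mean of littermates 1 and 2 on that array, with a median difference of -3.08. The summed level of the 9 epithelial miRNAs was 17.17 and 17.16 (log2) in littermates 1 and 2 and 17.05, 17.07, and 17.16 in the Cdr1as-/- mice. This sum is carried by miR-194-5p and miR-215-5p, and single epithelial miRNAs differed from it: in Cdr1as-/- mouse 1, 8 of the 9 read below the mean of littermates 1 and 2, with a median difference of -0.35, and in mouse 3, 6 of 9 did, with a median of -0.06. The difference of miR-375-3p, a miRNA of hormone-producing epithelial cells, was -1.505 in mouse 1 and -0.49 in mouse 3. The summed level of 6 immune miRNAs was 12.53 and 12.59 (littermates 1 and 2) against 12.13, 12.86, and 12.03 (Cdr1as-/- mice), an order of the Cdr1as-/- mice with mouse 2 highest, as for the members. That of 5 smooth muscle and mesenchyme miRNAs was 11.30 and 11.23 (littermates 1 and 2) against 12.54, 12.23, and 10.09 (Cdr1as-/- mice), and that of 3 erythroid miRNAs was 10.08 and 8.25 (littermates 1 and 2) against 7.61, 8.18, and 7.70 (Cdr1as-/- mice). In littermate 3 the 4 lists read 16.04, 9.25, 7.24, and 6.77 in this order. Of these markers, only the erythroid miR-486a-5p had an array (Cdr1as-/- mouse 2) on which none of its 5 probes was well above background, and the part of other cell types in the members' levels was not tested. Littermates 1 to 3 and Cdr1as-/- mouse 1 shared slide 1 and the other Cdr1as-/- mice slide 2, and littermate 1 was scanned apart from the rest. Within slide 1, where Cdr1as-/- mouse 1 alone stands for its genotype, 7 of 10 members were lower, with medians of -0.54 for miR-17-92 and -0.16 for miR-106b-25.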

How the data were processed

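Total RNA of mucosa was labelled with Cy3 and hybridized to 1 array per mouse (3 littermates, 3 Cdr1as-/- mice), and samples were grouped by the genotype and number in their titles. The labels do not say more of how the samples of a group were drawn, so p-values measure only the spread between these samples, which may be technical. The scanner output was written by Agilent Feature Extraction 11.0.1.1 per the file headers; its intensities, deposited by the authors, had the local background subtracted and were not scaled between arrays. The authors deposited normalized log2 values per probe and per miRNA; the normalization is not given in the sources used here. Their columns of group means, fold changes, regulation, p-values, and q-values were not used. Each deposited miRNA value matched, within 0.002, the log2 of the mean unlogged value of 1 to 5 consecutive probes, which assigned 8437 probes to 1831 miRNAs.

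Differences were fitted over all 1831 miRNAs by lmFit and eBayes of limma 3.58.1 (R 4.3.3) with Benjamini-Hochberg adjustment at 0.05, without a filter on low values, and single differences were tested by exact permutation, two-sided. Python 3.11.15, NumPy 2.4.6, pandas 2.3.3, SciPy 1.17.1, and matplotlib 3.10.9 were used. The limma and t-test code was first tested on simulated data, with changes larger than those of the members and no outlying array. The permutation, pair, and overlap code was not part of that simulation. The number of arrays limits the precision. The 10 members, their other strands, the paralogous cluster, and miRNAs of the same seed were named by list, together with the 3 miRNAs most like each polycistron's mean profile. The members and lists were chosen with earlier results of these data known. Of the listed strands, miR-18b-3p was not analysed here. Alternatives were the scanner signal scaled by the 75th percentile of detected or of all probes, quantile normalization, normexp with an offset of 50, the highest probe of each miRNA, a filter on dim probes (1635 miRNAs), the methods' t-test, an intensity trend, the replicate number or the slide as a block, each replicate left out, and, chosen after seeing the data, 2 samples left out together and the methods' t-test without littermate 3. The scanner, quantile, and normexp alternatives also took only the highest probe of each miRNA. Slide numbers came from the file headers. All used columns were assigned to a sample. Mature sequences and positions were credited to RefSeq (GRCm38.p6), in which all 10 members matched.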

Additional observations from a re-analysis of the deposited data

How the results depend on the processing

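The direction of the group difference rested on littermate 3 for most members, but not for all. Whichever replicate was left out, miR-17-5p (-0.57 to -0.054), miR-17-3p (-0.74 to -0.24), and miR-93-5p (-0.66 to -0.16) stayed lower in Cdr1as-/- mice. Without Cdr1as-/- mouse 2, miR-18a-5p (-0.38) and the median of miR-17-92 (-0.24) turned as well. Leaving out each replicate in turn, 3 to 10 members were lower in Cdr1as-/- mice and 0 to 7 pairs were without overlap. The median difference ranged from -0.57 to 0.49 for miR-17-92 and from -0.66 to 1.31 for miR-106b-25. Single members ranged from -0.77 to 0.49 (miR-18a-5p), -0.57 to 1.497 (miR-19a-3p), -0.38 to 0.65 (miR-20a-5p), -0.58 to 1.42 (miR-19b-3p), -0.64 to 0.32 (miR-92a-3p), -0.74 to 1.48 (miR-106b-5p), and -0.66 to 1.31 (miR-25-3p); the lowest value of each was that without littermate 3. With the scanner signal scaled by the 75th percentile and without littermate 3, the same members other than miR-92a-3p were at -0.80, -0.996, -0.89, -1.14, -0.94, and -0.75 in that order, with 10 members lower and 13 pairs without overlap. Without littermate 3 and Cdr1as-/- mouse 1 they were at -0.39, -0.26, -0.27, -0.37, -0.39, and -0.27, with 10 members lower and 8 pairs without overlap. Genotype and slide cannot be told apart in that comparison. The methods' t-test without littermate 3 alone takes the same differences of means as limma. Its values were therefore those of limma, at -0.77, -0.57, -0.38, -0.58, -0.74, and -0.66, with 10 lower. miR-92a-3p, at -0.05 with all 6 arrays, turned to 0.12 with the 75th percentile of detected probes and 0.22 with that of all probes. It was 0.11 with quantile normalization and 0.11 with the highest probe of the deposited values. The percentile and quantile settings read only its highest probe too, as did normexp, which left it at -0.020. With the slide as a block or within slide 1, 7 members were lower, and miR-18a-5p (-0.76), miR-106b-5p (-0.020), and miR-25-3p (-0.16) turned. Slide 2 holds no littermate, so both fits give the same differences, those of Cdr1as-/- mouse 1 from littermates 1 to 3.

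Among the pairs, leaving out each replicate gave -0.12 to 0.37 for miR-17-5p minus miR-17-3p, -0.068 to 0.13 for miR-19a-3p minus miR-19b-3p, -0.32 to 1.77 for miR-106b-5p minus miR-93-5p, -0.084 to 0.17 for miR-106b-5p minus miR-25-3p, and -1.61 to 0.24 for miR-93-5p minus miR-25-3p. miR-106b-5p minus miR-25-3p turned to -0.085 with either 75th percentile, -0.067 with quantile normalization, -0.041 with normexp, and -0.070 with the highest probe. These settings all read only the highest probe of each miRNA. Pairs without overlap numbered 3 with quantile normalization, 2 with normexp, and 3 with the highest probe. They numbered 7 without littermate 3 and 1 to 3 without littermate 1, littermate 2, or Cdr1as-/- mouse 2 or 3. The 75th percentile without littermate 3 gave -0.43 (miR-17-5p minus miR-17-3p), 0.019 (miR-17-5p minus miR-20a-5p), -0.29 (miR-106b-5p minus miR-93-5p), -0.19 (miR-106b-5p minus miR-25-3p), and 0.10 (miR-93-5p minus miR-25-3p), and without littermate 3 and Cdr1as-/- mouse 1 the pairs other than the second gave -0.14, -0.17, -0.12, and 0.050. The causes were not tested.

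Same-numbered samples did not all deviate together: the correlations of their deviations from the group means were -0.76, 0.56, and -0.22 for numbers 1 to 3, and 2 of 6 samples correlated best with their own number. A fit with the replicate number as a block can change only the p-values, since each number holds 1 mouse of each group. Its differences were therefore the same, at medians of 0.01 for miR-17-92 and 0.63 for miR-106b-25, with 4 members lower. It called 0 miRNAs and, unadjusted, found 1 miRNA lower and 2 higher. No setting gave a miRNA with an adjusted p below 0.05. Before adjustment, limma found 4 lower and 2 higher with all 6 arrays, 192 and 50 without littermate 3, and 150 and 20 without Cdr1as-/- mouse 1 as well, and the methods' t-test found 19 and 2 with all 6 arrays and 130 and 44 without littermate 3. Of 200 member values under 20 alternatives, 162 kept their sign and 38 turned. The filter on dim probes, the methods' t-test, the intensity trend, and the replicate block use the same differences of group means, so their signs could not turn. The slide block repeated the values within slide 1, and the methods' t-test without littermate 3 repeated those of limma. The tally is thus not a measure of robustness. Signal limited miR-92a-3p most, with 1 of 3 probes well above background in Cdr1as-/- mouse 2.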
